A study of Mus musculus with 8 samples.

Results

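The genes described here encode the enzymes that remove superoxide and peroxides, the enzymes that make and use glutathione, and NRF2 and KEAP1, which control many of them. A gene belonged to the set when its symbol starts with Gst, Gpx, Prdx or Txnrd, or when it was one of Txn1, Txn2, Glrx, Glrx2, Sod1, Sod2, Sod3, Gclc, Gclm, Gss, Gsr, Nqo1, Srxn1, Nfe2l2 and Keap1. In all, 51 genes of the 19938 with a name of their own met this rule. Their expression was read in sorted microglia, the brain's own macrophages, of whole brains of Swiss Webster mice aged 17 weeks and labelled female. The samples were 4 microarrays of MFP2 knockout mice and 4 of controls with the genotype wild type. MFP2, encoded by Hsd17b4, is a peroxisomal enzyme of the beta-oxidation of very long-chain fatty acids. The labels do not describe the knockout allele, and nothing in them says that the numbered replicates were separate animals; the p-values reflect only how much these samples varied, which may be technical.

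Superoxide dismutases turn superoxide into hydrogen peroxide. Catalase breaks down hydrogen peroxide, and hydrogen peroxide and lipid peroxides are reduced by glutathione peroxidases, which draw electrons from the tripeptide glutathione, and by peroxiredoxins, which draw them from thioredoxin. Glutathione reductase and the thioredoxin reductases recharge both carriers with NADPH, glutathione transferases attach glutathione to reactive molecules, and the transcription factor NRF2, held in check by KEAP1, switches on many of these genes through the antioxidant response element. In brain macrophages the system counters the oxidants that the cells make themselves.

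The values are log2 expression values, 1 probe set per gene. They compare a gene with itself between arrays, and the level of one gene was not set against that of another. Array medians lay between 6.03 and 6.15, and the number of arrays limits the precision. Hsd17b4 was at 8.83, 9.09, 8.15 and 7.82 in control 1 to control 4 and at 4.76, 7.20, 5.21 and 5.20 in knockout 1 to knockout 4, and every knockout array was below every control array, knockout 2 the least so. Control 1 went against its label of female: Xist was at 6.80 there and at 10.82 or more in the other control arrays, and the Y-linked Eif2s3y was at 8.14 against at most 2.99. Calls of the set and pathway list counts that change without control 1 are therefore named below. Of 12 measured microglial markers, whose means over all arrays ranged from 9.45 to 12.54, 9 were lower in knockouts and 0 higher, and their summed level on the linear scale was 43520 to 50329 in controls and 29771 to 34707 in knockouts. Of 8 border macrophage markers 1 was higher and 4 lower, and of 11 monocyte and neutrophil markers 1 was lower. Of 8 oligodendrocyte markers 1 was higher, and of 7 endothelial markers 1 was higher and 1 lower. In turn 0 of 9 T and NK cell, 6 B cell, 2 erythroid and 8 neuronal markers passed. By the rule given below 5.38% of all genes were higher and 4.17% lower, so 1 marker in a short list says little. The summed oligodendrocyte level was 611 to 681 in controls and 698 to 765 in knockouts. The part of oligodendrocyte RNA in the results was not tested. The summed monocyte and neutrophil level ran from 3438 to 21655 in controls and from 7873 to 13687 in knockouts, and the part of these cells in the results was not tested. Fewer cells of a type and less RNA per cell cannot be told apart in such bulk samples.

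In MFP2 knockout microglia 14 of the 51 genes were higher than in controls and 0 were lower, while 37 did not pass the test. The threshold was an adjusted p under 0.05 in limma, corrected over all genes. By the same rule 5.38% of all genes tested were higher, 4.17% were lower and 9.55% changed in either direction, against 27.5% of this set, all of it upward. The genes that rose were the superoxide dismutases Sod1 and Sod2, the glutathione peroxidases Gpx3 and Gpx4, the peroxiredoxins Prdx1 and Prdx3 with sulfiredoxin Srxn1, the thioredoxins Txn1 and Txn2, and the glutathione transferases Gsto1, Gstm1, Gstm3, Gstm4 and Gstm5. Gstm3 rose at 1 of its 2 probe sets only, and the other changed by -0.18. The enzymes of glutathione synthesis and reduction, NRF2, KEAP1 and NQO1 did not pass. The median log2 change was 0.15 over the set and -0.02 over all genes. In 13 of the 51 every knockout array lay above every control array, as it did for 7.09% of all genes, and in 0 every knockout array lay below. At an unadjusted p under 0.05, 3 genes were below controls, Gpx2, Gstt2 and Gstt3, against 10.7% of all genes.

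The count of 14 rested on several arrays. It was 7 without control 1, 9 without control 2, 8 without control 4, 4 without knockout 3 and 8 without knockout 4. It was 12 without control 3 and knockout 2 together. The count of higher genes over the whole experiment, 1073 in the main fit, also fell. In the same order it was 789, 871, 794, 753, 805 and 1026. A plain two-sample test with the same correction called 2 genes of the set higher and 0 lower, and 377 higher and 271 lower over all genes. Gpx3, Prdx1, Txn2 and Gsto1 passed without any single array.

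**Figure D1:**
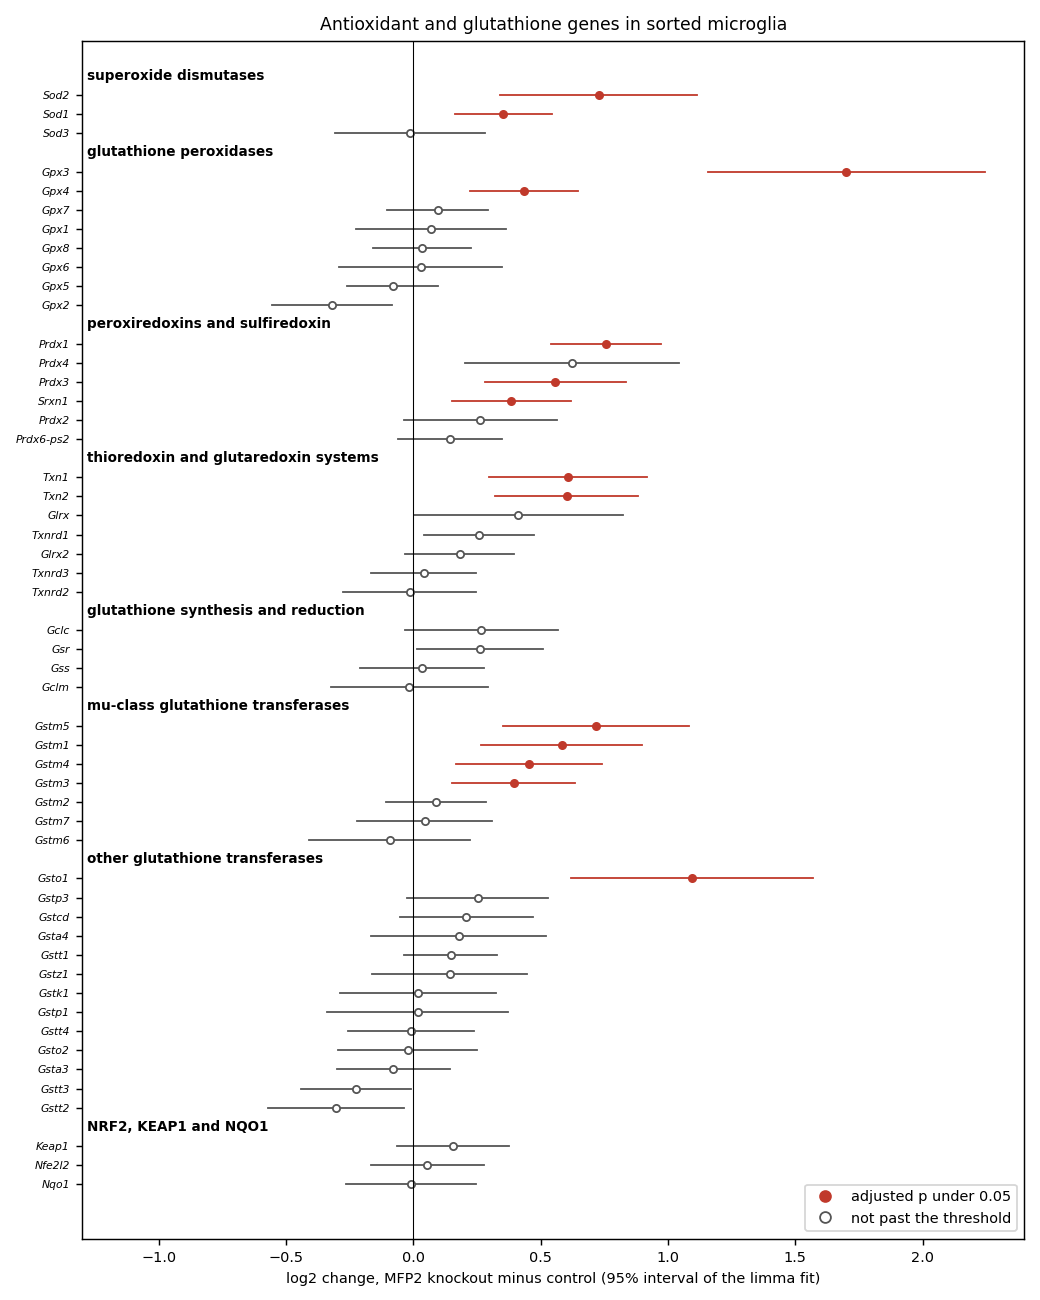
Log2 change of each of the 51 genes, MFP2 knockout minus control, with the 95% interval of the limma fit, grouped by role. Filled red points mark the 14 genes with an adjusted p under 0.05, all to the right of 0, from 0.35 for Sod1 to 1.70 for Gpx3, and open points the 37 that did not pass.

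The DNA before the start sites is shown because the genes that rose together include known targets of NRF2. Other known targets in the set, such as Txnrd1 and Nqo1, did not pass. The motif searched was TGACNNNGC, the core of the antioxidant response element, on both strands of RefSeq windows (GRCm38.p6) of 300 bases, from 250 bases before a start site to 50 after it. The motif TGACTCAGC, a stricter form, also contains TGACTCA, the motif of AP-1 factors. Windows were found for 45 of the 51 genes, including all 14 that rose. Of the 14, 4 held TGACNNNGC, namely Prdx1, Srxn1, Sod1 and Gstm5, or 28.6%. Of the 31 others with a window 5 held it, or 16.1%, namely Gclm, Nfe2l2, Txnrd1, Gsta3 and Gstm7, and of all 27025 genes with a window 13.99%. TGACTCAGC was found in the window of Prdx1 alone among these genes, and in 0.454% of all windows. A match describes the letters in this window and does not show that a factor binds. The bases before the start site follow, with the match in capitals. The match of Srxn1 begins 28 bases past the start, so it is given with 10 bases on each side. Gpx3, which had the largest change, had no match and is shown beside them.
Prdx1, chr4:116685349-116685598, plus strand: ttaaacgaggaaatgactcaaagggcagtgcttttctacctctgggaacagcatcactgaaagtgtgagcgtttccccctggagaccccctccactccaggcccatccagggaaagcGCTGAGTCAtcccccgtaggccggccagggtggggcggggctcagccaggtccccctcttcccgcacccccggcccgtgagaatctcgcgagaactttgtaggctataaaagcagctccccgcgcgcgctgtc
Sod1, chr16:90220512-90220761, plus strand: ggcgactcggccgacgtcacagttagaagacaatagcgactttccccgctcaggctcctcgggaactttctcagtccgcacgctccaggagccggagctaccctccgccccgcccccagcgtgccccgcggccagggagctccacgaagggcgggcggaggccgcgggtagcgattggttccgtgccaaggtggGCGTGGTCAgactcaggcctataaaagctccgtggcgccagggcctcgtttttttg
Gstm5, chr3:107895604-107895853, plus strand: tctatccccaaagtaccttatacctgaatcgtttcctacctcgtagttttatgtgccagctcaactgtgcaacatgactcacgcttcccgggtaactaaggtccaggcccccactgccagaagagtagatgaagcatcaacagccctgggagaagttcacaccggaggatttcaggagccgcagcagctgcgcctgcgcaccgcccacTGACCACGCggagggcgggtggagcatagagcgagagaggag
Srxn1, chr2:152105542-152105570, plus strand: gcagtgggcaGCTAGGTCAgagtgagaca
Gpx3, chr11:54902604-54902853, plus strand: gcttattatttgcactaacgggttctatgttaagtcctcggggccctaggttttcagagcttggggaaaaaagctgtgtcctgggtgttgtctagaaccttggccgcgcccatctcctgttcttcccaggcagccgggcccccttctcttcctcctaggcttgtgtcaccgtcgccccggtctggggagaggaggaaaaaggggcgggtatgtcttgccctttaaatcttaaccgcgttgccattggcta
The Prdx1 match reads TGACTCAGC on the opposite strand and begins 133 bases before the start. The Sod1 match, TGACCACGC, also lies on the opposite strand, 56 bases before the start. Gstm5 carries the same letters, TGACCACGC, on its own strand, 42 bases before the start. The Srxn1 match reads TGACCTAGC on the opposite strand.

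Both superoxide dismutases that work inside the cell were higher in knockout microglia, and the extracellular one was not. Sod1, the copper-zinc enzyme of the cytosol (probe set 10436783), was at 10.95, 10.89, 11.13 and 10.86 in control 1 to control 4 and at 11.29, 11.36, 11.27 and 11.31 in knockout 1 to knockout 4. Sod2, the manganese enzyme of the mitochondrial matrix (probe set 10441815), was at 7.10, 7.29, 6.996 and 6.65 in controls and at 7.33, 7.54, 7.93 and 8.15 in knockouts. The groups did not overlap in either gene, but for Sod2 only 0.04 separated knockout 1 from control 2, while knockout 3 and knockout 4 stood higher. Sod1 rose by 0.35 ± 0.09 (SE), or 1.28-fold, and Sod2 by 0.73 ± 0.18, or 1.66-fold (limma adjusted p = 0.0226 and 0.02135). Sod3, the secreted enzyme, was at 5.81 ± 0.30 (SD, n = 4) in controls and 5.80 ± 0.11 in knockouts, with a 95% interval of the difference from -0.31 to 0.28. The rise of Sod1 depended on how the arrays were scaled: it was 0.01 after quantile normalization (adjusted p = 0.954) and 0.11 after cyclic loess (adjusted p = 0.516), and among the 184 genes with a mean over 11, where Sod1 lies, the median change was 0.02 as deposited, -0.30 after the former and -0.28 after the latter. Sod1 was kept only without control 3 or knockout 1 and lost without any other single array (adjusted p up to 0.0738), and Sod2 without control 4, knockout 3 or knockout 4 (adjusted p up to 0.0701).

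Of 8 glutathione peroxidase genes, 2 rose, or 25% against 5.38% of all genes, and 6 did not pass. Gpx3 encodes the secreted peroxidase known from plasma and had the largest change of the set. Its probe set (10376201) was at 6.32, 5.60, 6.07 and 4.84 in control 1 to control 4 and at 7.61, 7.16, 7.46 and 7.40 in knockout 1 to knockout 4. The lowest knockout array stood 0.83 above the highest control array, and the controls spread more widely than the knockouts, with an SD of 0.65 against 0.19. Gpx3 rose by 1.70 ± 0.25 (SE), or 3.25-fold (limma adjusted p = 0.00115), and by 1.41 to 1.91 with single arrays left out.

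Gpx4, which reduces lipid peroxides within membranes and is known for holding back ferroptosis, rose by less but with a narrower spread. It was at 9.22, 9.29, 9.29 and 9.17 in controls and at 9.55, 9.53, 9.76 and 9.88 in knockouts (probe set 10364675), with no overlap. The change was 0.43 ± 0.10 (SE), or 1.35-fold (limma adjusted p = 0.0139), and among single arrays the call was lost without knockout 3 (adjusted p = 0.0503). A second Gpx4 probe set gave 0.46 ± 0.10.

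Gpx1, the main cytosolic peroxidase of most cells, did not pass. It was at 10.90, 11.21, 11.26 and 11.49 in controls and at 11.03, 11.23, 11.39 and 11.50 in knockouts, and the groups overlapped fully. The difference was 0.07 (95% interval -0.22 to 0.36), and its sign turned after quantile normalization (-0.33) and cyclic loess (-0.19), without control 1 (-0.04) and without knockout 4 (-0.0024). Gpx2, known from the gut lining, had the lowest change of the set. It was at 5.55, 5.90, 5.89 and 5.97 in controls and 5.52, 5.37, 5.67 and 5.48 in knockouts. The difference of -0.32 ± 0.11 (SE) did not pass (limma adjusted p = 0.0955) but did so without control 1 (adjusted p = 0.0316). The changes of the other 4, Gpx5, Gpx6, Gpx7 and Gpx8, lay between -0.08 and 0.10, and all 4 were dim, with means below the median of all genes, 6.24.

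Among peroxiredoxins and the enzyme that repairs them, 3 of 6 genes rose, or 50% against 5.38% of all genes, and 0 fell. Prdx1, the abundant cytosolic peroxiredoxin, had the lowest adjusted p of the set. It was at 9.41, 9.49, 9.34 and 9.29 in controls and at 10.04, 9.96, 10.31 and 10.24 in knockouts (probe set 10436048). The groups were 0.47 apart at their nearest arrays. The rise was 0.76 ± 0.10 (SE), or 1.69-fold (limma adjusted p = 0.000676), stayed between 0.70 and 0.81 with single arrays left out, and was 0.75 ± 0.11 at a second probe set. After cyclic loess it was 0.65.

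Prdx3 is the peroxiredoxin of the mitochondrial matrix. It was at 7.22, 7.43, 7.16 and 7.05 in controls and at 7.70, 7.47, 7.90 and 8.03 in knockouts (probe set 10468869), with 0.04 between knockout 2 and control 2. It rose by 0.56 ± 0.13 (SE), or 1.47-fold (limma adjusted p = 0.0149), and was lost without knockout 3 (adjusted p = 0.0521). Srxn1, sulfiredoxin, reactivates peroxiredoxins that peroxide has over-oxidised. Its values of 6.66, 6.49, 6.65 and 6.50 in controls and 6.91, 6.70, 7.05 and 7.17 in knockouts (probe set 10477061) did not overlap. Srxn1 rose by 0.39 ± 0.11 (SE), or 1.31-fold (limma adjusted p = 0.0416), and passed without 1 single array only, knockout 2, with an adjusted p of up to 0.122 without the others.

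Prdx4, the peroxiredoxin of the endoplasmic reticulum, missed the threshold although its groups did not overlap. Controls were at 7.78, 8.01, 7.87 and 7.91, knockout 1 and knockout 2 at 8.05 and 8.12, and knockout 3 and knockout 4 at 8.97 and 8.93. The knockout SD was 0.50 against 0.10 in controls, and the change of 0.62 ± 0.19 (SE) gave a limma adjusted p of 0.0667. It passed after cyclic loess (adjusted p = 0.0490), when dim genes were left out (adjusted p = 0.04305) and without knockout 1 or knockout 2. The remaining genes were cytosolic Prdx2, with 0.26 (95% interval -0.04 to 0.56), and the pseudogene Prdx6-ps2, with 0.14. A second Prdx2 probe set gave 0.11 ± 0.17 (SE). Prdx5 and Prdx6 are not analysed here.

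Both thioredoxins rose, and the reductases and glutaredoxins did not pass. Txn1, the cytosolic thioredoxin that recharges Prdx1, was at 9.22, 9.29, 9.74 and 9.55 in controls and at 9.89, 9.83, 10.15 and 10.35 in knockouts (probe set 10513195). Txn2, its mitochondrial counterpart that recharges Prdx3, was at 8.36, 8.38, 8.21 and 8.08 in controls and at 8.48, 8.89, 8.98 and 9.09 in knockouts (probe set 10430247). Neither gene overlapped between groups, with control 3 the nearest control for Txn1 and knockout 1 the nearest knockout for Txn2. Txn1 rose by 0.61 ± 0.14 (SE), or 1.52-fold (limma adjusted p = 0.0171), and Txn2 by 0.60 ± 0.13, also 1.52-fold (limma adjusted p = 0.01095). Txn1 was lost without control 1, control 2 or knockout 3 (adjusted p up to 0.0632), and Txn2 when control 3 and knockout 2 were both left out (adjusted p = 0.0567).

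Txnrd1, the cytosolic thioredoxin reductase and a known NRF2 target, lay higher in every knockout array by a small margin. It was at 7.23, 7.06, 7.22 and 7.19 in controls and at 7.24, 7.37, 7.65 and 7.47 in knockouts. The change of 0.26 ± 0.10 (SE; 95% interval 0.04 to 0.48) did not pass (limma adjusted p = 0.149). Txnrd2, the mitochondrial reductase, was at 6.92 ± 0.22 (SD, n = 4) in controls and 6.91 ± 0.14 in knockouts, with an interval of the difference from -0.27 to 0.25, and Txnrd3 changed by 0.04. Of the glutaredoxins, which reduce protein disulfides with glutathione, cytosolic Glrx reached 8.05 in knockout 3 and 8.59 in knockout 4 against 7.52 and 7.70 in knockout 1 and knockout 2 and at most 7.72 in controls. Its change of 0.41 and that of mitochondrial Glrx2, 0.18, did not pass (limma adjusted p = 0.233 and 0.336).

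**Figure D2:**
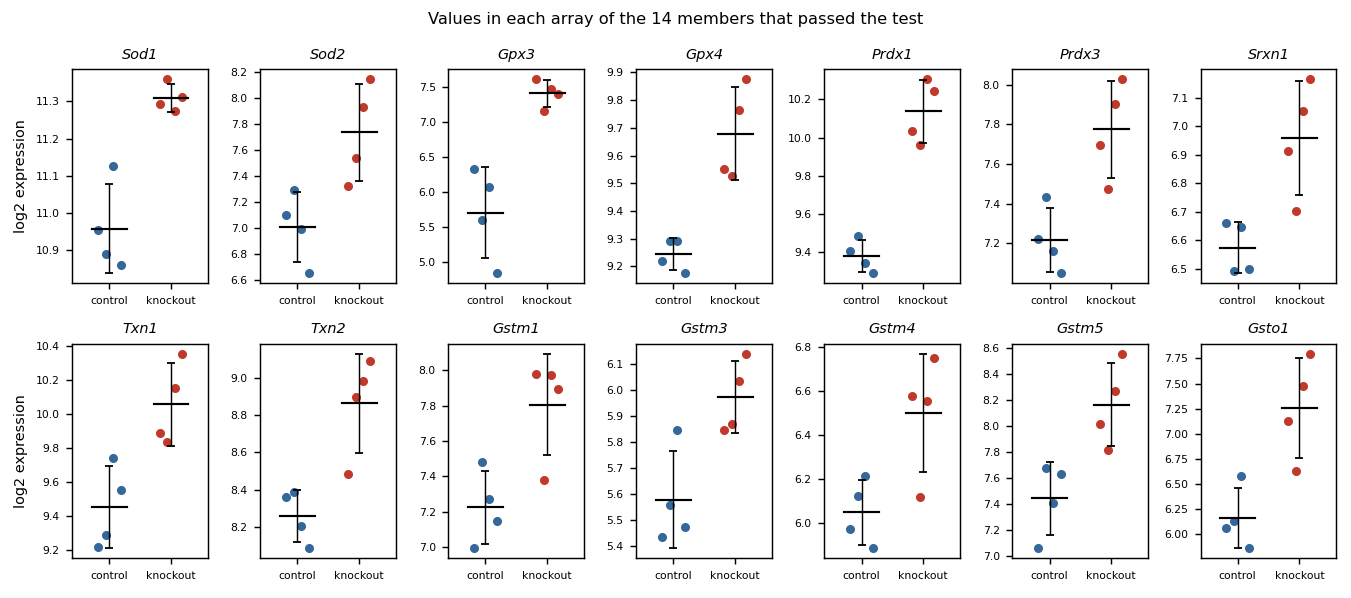
Log2 expression in each of the 8 arrays for the 14 genes that passed, with blue points for the 4 controls and red points for the 4 knockouts, arrays 1 to 4 from left to right, lines at the group means and bars of 1 SD; each panel has its own axis. The groups are apart in 11 of the 14 panels and overlap in Gstm1, Gstm3 and Gstm4, and knockout 2 is often the lowest red point. Among all 1905 genes called in either direction, the groups are apart in 1768.

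The knockout arrays kept a similar order across these genes. Knockout 4 was the highest knockout array in 10 of the 14 and knockout 2 the lowest in 10. Over the 1073 genes called higher in the whole experiment, knockout 4 was highest in 53.7% and knockout 2 lowest in 45.0%. Control 4 was the lowest control array in 9 of the 14, and the matching share over all genes called higher was not computed.

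The enzymes that make glutathione did not pass the test. Gclc and Gclm, the catalytic and modifier subunits of glutamate-cysteine ligase, carry out the first and rate-limiting step. Gclc was at 7.83, 8.00, 7.55 and 7.33 in controls and at 7.73, 7.99, 8.08 and 7.98 in knockouts, a change of 0.27 (95% interval -0.03 to 0.57, limma adjusted p = 0.309). Gclm was at 6.59, 6.55, 6.05 and 6.26 in controls and at 6.17, 6.22, 6.67 and 6.31 in knockouts, a change of -0.02 (95% interval -0.33 to 0.29) whose sign turned without control 1, control 2, knockout 1 or knockout 2. In both genes the groups overlapped, and the controls differed among themselves by more than the group means did. Gss, which completes glutathione, changed by 0.03 (95% interval -0.21 to 0.28). Gsr, glutathione reductase, was at 6.72, 7.14, 7.25 and 6.99 in controls and at 7.23, 7.29, 7.23 and 7.39 in knockouts. Its change of 0.26 (95% interval 0.02 to 0.51) did not pass (limma adjusted p = 0.204).

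The regulators showed no change past the threshold either. Nfe2l2, the gene of NRF2, was at 10.73, 10.88, 10.55 and 10.66 in controls and at 10.75, 10.59, 10.94 and 10.74 in knockouts. Keap1, whose protein marks NRF2 for degradation, was at 6.81, 6.72, 6.87 and 6.66 in controls and at 6.95, 6.77, 6.81 and 7.15 in knockouts. Both overlapped between the groups, with changes of 0.06 (95% interval -0.17 to 0.28) and 0.16 (-0.06 to 0.38). The sign of the Nfe2l2 change turned after quantile normalization (-0.11), after cyclic loess (-0.15) and without knockout 3 (-0.01). NRF2 is known to be controlled mainly through the stability of its protein, which these arrays do not measure. Nqo1, a quinone reductase often used as a readout of NRF2, was dim, at 3.84 ± 0.24 (SD, n = 4) in controls and 3.83 ± 0.09 in knockouts, and the interval of the difference ran from -0.26 to 0.25.

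**Figure D3:**
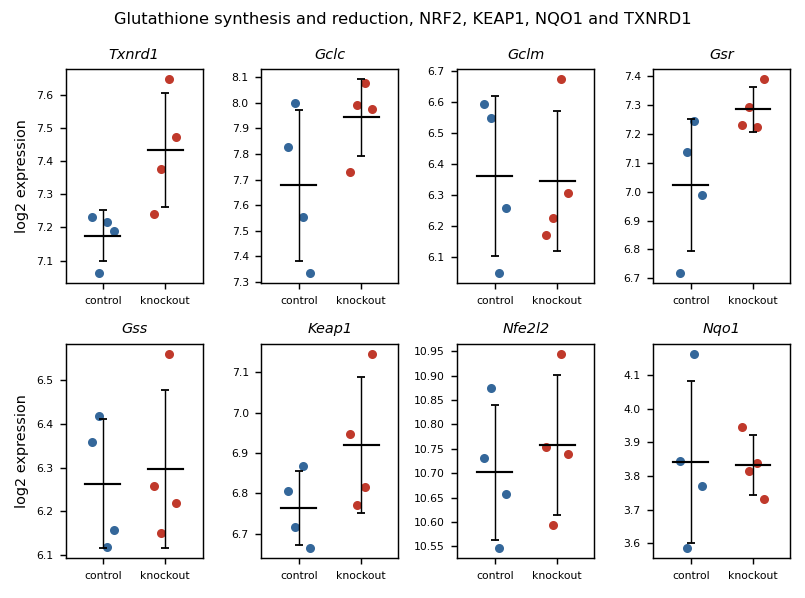
Log2 expression in each array for Txnrd1, the 4 genes of glutathione synthesis and reduction, Nfe2l2, Keap1 and Nqo1, with controls in blue, knockouts in red, lines at the group means and bars of 1 SD; each panel has its own axis. The groups overlap in every panel except Txnrd1, where the lowest knockout array, at 7.24, lies just above the highest control array, at 7.23.

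Of 20 genes with a Gst symbol 5 rose and 0 fell. Outside the mu class 1 of 13 rose, or 7.69%, near the 5.38% of all genes called higher. The other 4 were among the 7 genes of the mu class, or 57.1%. These genes stand side by side on the reference, in the order Gstm5, Gstm7, Gstm6, Gstm3, Gstm2, Gstm1 and Gstm4, with no other protein-coding gene between them. Their sequences are similar, so a probe set named for one may also take up signal from another, and single members are uncertain. Gstm5 was at 7.06, 7.68, 7.40 and 7.63 in controls and at 8.01, 7.82, 8.27 and 8.55 in knockouts (probe set 10495243), with no overlap. Gstm1 was at 6.99, 7.48, 7.27 and 7.15 in controls and at 7.98, 7.38, 7.97 and 7.89 in knockouts (probe set 10501229). Knockout 2 lay among the controls for Gstm1, and the other knockout arrays lay above the highest control. Gstm5 rose by 0.72 ± 0.17 (SE), or 1.64-fold, and Gstm1 by 0.58 ± 0.15, or 1.50-fold (limma adjusted p = 0.0171 and 0.0239).

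Gstm4 and Gstm3 passed narrowly. Gstm4 was at 5.97, 6.12, 6.21 and 5.88 in controls and at 6.58, 6.12, 6.55 and 6.75 in knockouts (probe set 10501235), a rise of 0.45 ± 0.13 (SE; limma adjusted p = 0.0495). Gstm3 was at 5.43, 5.56, 5.85 and 5.47 in controls and at 5.85, 5.87, 6.03 and 6.14 in knockouts (probe set 10362511), a rise of 0.39 ± 0.11 (limma adjusted p = 0.0430). Control 3 reached the knockout range for Gstm3, and knockout 2 the control range for Gstm4. The Gstm3 result held for 1 of its probe sets only: the other (10501218) was at 5.48, 5.48, 5.59 and 5.42 in controls and 5.40, 5.57, 5.29 and 4.98 in knockouts, a change of -0.18 ± 0.12, and the mean of both changed by 0.11 (adjusted p = 0.586). Of the 4 mu-class calls, 0 remained without control 1 or without knockout 3, 1 without control 4 or without knockout 4, and 2 without control 2 or without knockout 1, with adjusted p up to 0.0539 for Gstm5, 0.0781 for Gstm1, 0.129 for Gstm3 and 0.138 for Gstm4. Gstm2, Gstm6 and Gstm7 changed by -0.09 to 0.09.

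Mu-class transferases are also known from astrocytes, and 2 of the 9 astrocyte markers were higher in knockouts, Gfap (1.28) and Aldoc (0.76), with 0 lower. The summed level of that list on the linear scale was 884 to 968 in controls and 936 to 1109 in knockouts. The other 7 did not pass: Clu, Aldh1l1 and Slc1a2 changed by 0.48, 0.27 and 0.26, and Aqp4, Slc4a4, Slc1a3 and Gja1 by -0.02, -0.05, -0.10 and -0.70. The median change of the list was 0.26, and 5 of the 9 were higher and 0 lower at an unadjusted p under 0.05. Of all 19938 genes, 2063 were higher and 2133 lower by that rule, and after adjustment 5.38% were higher and 4.17% lower. The part of astrocyte RNA in the mu-class values was not tested.

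Gsto1, an omega-class transferase that acts on glutathione-bound thiols, had the second largest change of the set. It was at 6.07, 6.13, 6.58 and 5.87 in controls and at 7.13, 6.63, 7.48 and 7.79 in knockouts (probe set 10463836). Knockout 2 was 0.05 above control 3, and the other knockout arrays stood well above all controls. The rise was 1.10 ± 0.22 (SE), or 2.14-fold (limma adjusted p = 0.00709), and 0.92 to 1.30 with single arrays left out. Its neighbour in name Gsto2 changed by -0.02 (95% interval -0.30 to 0.25).

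The other 12 genes with a Gst symbol outside the mu class, Gsto2 among them, changed by -0.30 to 0.25, and 0 passed. Gstp1, the pi-class enzyme, was at 9.35, 9.29, 8.76 and 9.08 in controls and 9.03, 8.76, 9.23 and 9.51 in knockouts, with wide overlap and an interval from -0.34 to 0.37. The highest were Gstp3 at 0.25 and Gstcd, counted here by its symbol alone, at 0.21, neither of which passed. The theta-class genes Gstt2 and Gstt3 were the lowest, at -0.30 and -0.23 (limma adjusted p = 0.169 and 0.213). Gstk1, an enzyme of mitochondria and peroxisomes, changed by 0.02 (95% interval -0.29 to 0.32). A further 6 probe sets are annotated to several genes of these families at once, among them Gsta1 with Gsta2 and Gstp1 with Gstp2, and were not used.

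Sod1, Gpx1 and Nfe2l2, all bright genes, were the members whose change moved most under quantile normalization and cyclic loess. Sod3, Gsto2, Gstp1, Gstt4 and Nqo1, all within 0.03 of 0 as deposited, also changed sign under 1 or both of these. With arrays centred on their medians, or quantile normalized, 14 and 13 of the set were higher. After cyclic loess the count was again 14, with Prdx4 in place of Sod1. Of the 51 genes, 31 had a mean above the median of all genes, and 13 of the 14 that rose were among these, Gstm3 being the dim one. Over the whole experiment, 1686 of the 1905 genes called in either direction had a mean above that median. They were called among the 9969 genes above it.

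**Figure D4:**
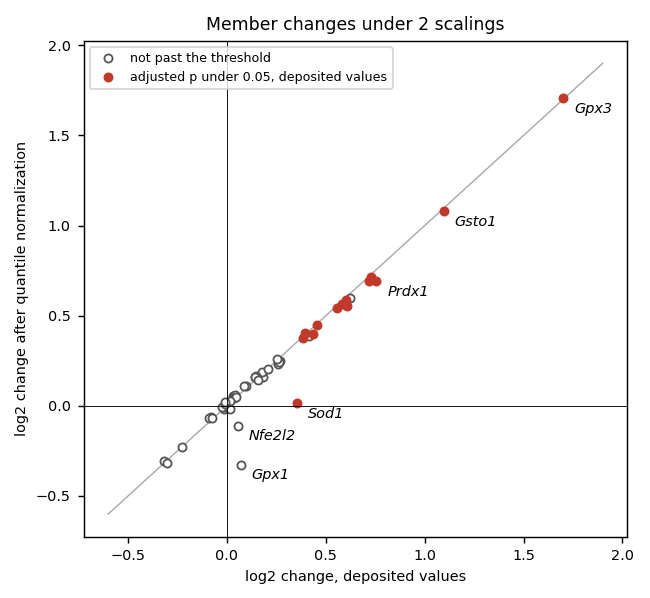
Log2 change of each of the 51 genes in the deposited values (horizontal) and after quantile normalization (vertical), with the line of equality in grey and the 14 genes that passed in red. Most points lie on the line; Sod1 moves from 0.35 to 0.01, Gpx1 from 0.07 to -0.33 and Nfe2l2 from 0.06 to -0.11.

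Other genes of the pathway, taken from 3 lists outside the set, were more often higher than lower. Over the 105 measured, 23 were higher and 6 lower, or 21.9% and 5.71%, against 5.38% and 4.17% of all genes, so the share of lower genes was near that of all genes. The median log2 change was 0.08, and without control 1 the counts were 21 higher and 5 lower. Of 38 genes of glutathione supply and turnover, 9 rose and 1 fell, or 23.7% and 2.63%. Got1, the cytosolic aspartate aminotransferase, rose by 1.16 ± 0.10 (SE; limma adjusted p = 0.000169), from 7.74, 7.63, 7.65 and 7.35 in controls to 8.73, 8.65, 8.90 and 8.74 in knockouts. Slc7a11, which imports cystine for glutathione synthesis, rose by 0.53, Chac1, which degrades glutathione, by 0.83, the peptidases Anpep and Cndp2 by 0.85 and 0.54, and Ggt5, a gamma-glutamyltransferase, fell by 0.87. Slc7a11 was dim, at 3.90 ± 0.06 (SD, n = 4) in controls and 4.43 ± 0.14 in knockouts. Without knockout 1 this list had 10 higher and 4 lower members, and without control 3 it had 2 lower.

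Of 41 other thiol, peroxide and haem antioxidant genes, 13 rose and 3 fell, or 31.7% and 7.32%, against 5.38% and 4.17% of all genes. Without control 1 the counts were 11 and 3. Txnip, which binds and inhibits thioredoxin, fell in every knockout array: controls were at 11.05, 11.09, 10.80 and 11.27 and knockouts at 10.00, 10.27, 9.93 and 9.94. The change was -1.02 ± 0.12 (SE), a 2.03-fold difference (limma adjusted p = 0.0004055). Mt2 and Mt1, metallothioneins that bind zinc and copper, rose by 2.02 and 1.35, the sestrin Sesn2 by 0.78 and the ferritin light chain Ftl1 by 0.65, while Sesn1, another sestrin, fell by 0.92. Mt2 rose from 5.79, 6.05, 6.88 and 6.47 in controls to 7.62, 8.30, 8.84 and 8.52 in knockouts. Catalase, Cat, the peroxidase of peroxisomes, did not pass: it was at 9.14, 9.30, 8.84 and 8.74 in controls and at 9.09, 9.13, 9.17 and 8.95 in knockouts, a change of 0.08 (95% interval -0.19 to 0.35) whose sign turned without control 4.

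Among 34 partners and targets of NRF2, 6 rose and 2 fell, and 5 of these 8 also stand in another list. These were 17.6% and 5.88%, against 5.38% and 4.17% of all genes. The share of lower genes was thus near that of all genes. Hmox1, haem oxygenase, rose from 8.96, 9.02, 9.15 and 8.56 in controls to 9.50, 9.30, 9.98 and 9.88 in knockouts, by 0.75 ± 0.16 (SE; limma adjusted p = 0.0118). Ephx1, an epoxide hydrolase, rose by 1.19 and the ferritin heavy chain Fth1 by 0.46, while the carbonyl reductase Cbr3 fell by 0.49. Ftl1 and Fth1 are bright genes, and after quantile normalization their changes were 0.22 and 0.03 (adjusted p = 0.101 and 0.906). After cyclic loess Ftl1 still passed and Fth1 did not, at 0.12 (adjusted p = 0.460). The 2 lower genes became 0 with arrays centred on their medians and without control 2, knockout 2, knockout 3 or knockout 4, and 1 when control 1 or control 4 was left out. The 6 higher genes were 9 without knockout 2, 5 without control 1 and 4 after quantile normalization.

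**Figure D5:**
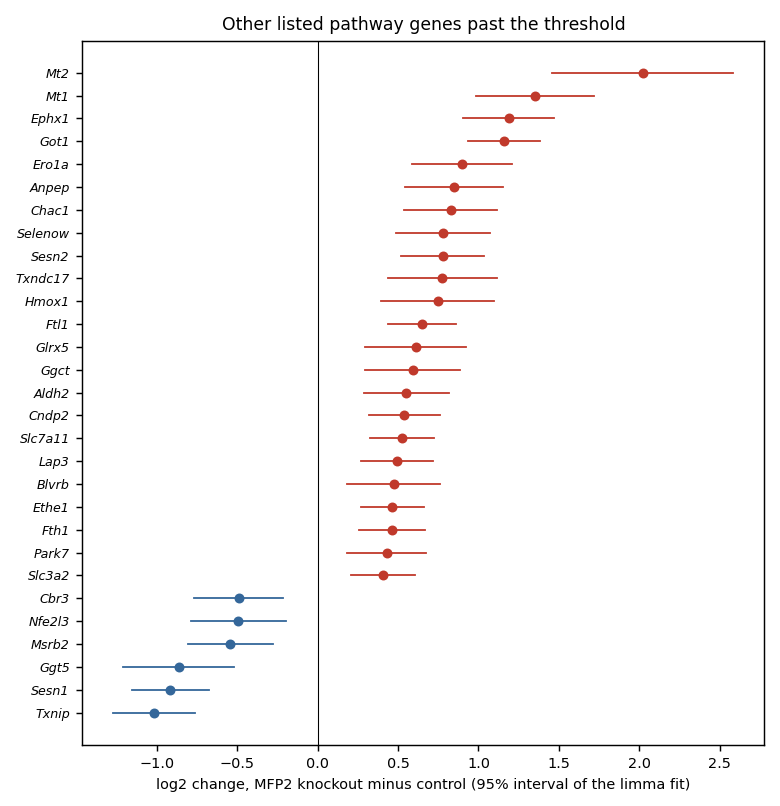
Log2 change, MFP2 knockout minus control, with the 95% interval of the limma fit, for the 29 genes of the other pathway lists that passed. The 23 that rose are in red, up to 2.02 for Mt2, and the 6 that fell in blue, down to -1.02 for Txnip.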

How the data were processed

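Per the labels, CD11b-high, CD45-mid cells were sorted from perfused, Percoll-cleared brains, and amplified RNA was hybridised to 1 Affymetrix gene array per sample. The deposited table holds log2 expression per probe set, made by the authors with RMA, per the submitters' processing notes. A version is not given in the sources used, and the base of the logarithm was taken from the values, which run from 2.04 to 13.99. RMA understates the changes of dim genes and hides a shift shared by all genes. Of 28874 probe sets, 21789 had 1 gene symbol, 1621 several and 5464 none. Each gene was represented by the probe set with the highest mean, and 0 columns were left out.

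Knockout minus control was fitted over all 19938 genes with limma 3.58.1 in R 4.3.3 (moderated test, two-sided, no covariate), with Benjamini-Hochberg adjustment. The method was checked on simulated data. The set, the lists and the tests were chosen with earlier results of these data known. The genes named are every gene of the set that passed, 10 chosen ones, the 3 lowest p among the rest, up to 6 per pathway list, Cat, Hmox1 and Hsd17b4; Gstt2, Gstt3, Gstp1, Txnrd2, Glrx, Gfap, Aldoc and a few others were chosen after their values were seen. Alternatives covered scaling, a filter on dim genes, probe sets, priors, array weights, the replicate block, single arrays, thresholds and a plain test; 2 others, leaving out several arrays, were added after the data were seen. Same-numbered arrays deviated together little over all genes (correlations 0.16, -0.06, 0.01 and 0.01). Such correlations cannot exclude that the numbers pair the arrays, and the main fit used no pairing. Figures were drawn with matplotlib 3.10.9.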

Additional observations from a re-analysis of the deposited data

Results flagged for a closer look

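In 82 groups of 4 arrays, 2 for each named gene, 4 groups had an array far from the rest by Dixon's criterion (a gap above 0.829 of the group's range), where chance flags about 1 group in 20. Gstm1 in knockout 2 was at 7.38, and the other knockout arrays lay between 7.89 and 7.98. Chac1 in knockout 4 was at 7.63 against 7.17 to 7.22 in the others. Sesn1 in control 3 was at 9.81 against 10.11 to 10.14 in the other controls. Cbr3 in control 2 was at 7.51 against 7.003 to 7.04. The Cbr3 call was lost without control 2, knockout 2, knockout 3 or knockout 4 (adjusted p up to 0.0725), and the other 3 genes keep the values given with them above.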

How the results depend on the processing

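The count of 14 genes higher and 0 lower became 3 and 0 at an adjusted p under 0.01, 2 and 0 with the plain two-sample test, and 7 and 0 without control 1, control 3 and knockout 2, an alternative chosen after the data were seen. With single arrays left out, 4 to 13 genes were higher and 0 to 1 lower. The other pathway genes, 23 higher and 6 lower, gave 10 and 3 with the plain test, 3 lower at an adjusted p under 0.01 and 3 lower without the 3 arrays. With the replicate block 11 of the set were higher, without Sod1, Srxn1, Gstm1 and Gstm4 and with Prdx4. Signs turned for genes that did not pass: Gpx1 at -0.33 (quantile), -0.19 (cyclic loess), -0.0464 (without the 3 arrays) and -0.0354 to 0.16 with single arrays left out; Nfe2l2 at -0.11, -0.15 and -0.0067 to 0.11 in the same way; Gclm at -0.13 to 0.0612 and Cat at -0.0113 to 0.18 with single arrays left out. Over all genes, 1073 higher and 832 lower became 377 and 271 with the plain test, 567 and 358 at the stricter threshold and 649 and 494 without the 3 arrays; the count of lower genes was 507 without knockout 3, 517 without control 2 and 544 without control 1. Causes were not tested. Dim genes such as Nqo1 and Slc7a11 limit what a small change can show.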

Other observations

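Among the genes of the set and of the pathway lists, 16 measured ones encode selenoproteins, which carry the amino acid selenocysteine; they were gathered after their values were seen. Of these, 3 were higher, 0 lower and 13 did not pass. The 3 were Gpx3 (1.70), Gpx4 (0.43) and Selenow, a small thiol-disulfide protein (0.78, limma adjusted p = 0.00306). All 3 were already counted above, Gpx3 and Gpx4 in the set and Selenow in the pathway lists. By the same rule 5.38% of all genes were higher and 4.17% lower, so 0 lower among 16 genes says little. Selenop, which carries selenium between tissues, missed the threshold at -0.27 (limma adjusted p = 0.0501), with controls at 11.51 and knockouts at 11.24 on average. The median change of the 16 genes was 0.05.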
